A study of Saccharomyces cerevisiae with 16 samples.

Results

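Translation factors are the proteins that load mRNA and initiator tRNA onto the ribosome, move the ribosome along the mRNA and release the finished chain. A list of 33 yeast genes for these factors was followed through the first minutes after a sudden supply of glucose. It holds 8 genes for cap binding, scanning and poly(A) binding, 4 for start codon selection and subunit joining, 3 for eIF2, 5 for eIF2B, 6 for eIF3, 5 for elongation and 2 for termination. Each gene was represented by the probe set annotated to it alone, and by the brighter one where there were 2. Of the 33 genes, 31 had such a probe set and all 31 entered the fit, out of 5410 genes tested. TIF1 and TIF2, which encode the same eIF4A helicase, share a probe set annotated to both and have no value here.

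Initiation in yeast starts when eIF4E and eIF4G bind the capped mRNA, with help from the poly(A)-binding protein, while eIF2 with GTP brings the initiator tRNA to the small subunit together with eIF1, eIF1A, eIF3 and eIF5. Helicases open the leader for scanning, and eIF5B joins the large subunit at the start codon. eIF2B reloads eIF2 with GTP, the step that the kinase Gcn2 blocks in starved cells. Translation factors are among the growth-related genes of yeast, and their transcripts are known to be higher in cells that grow fast.

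The cells were Saccharomyces cerevisiae CEN.PK 113-7D, a laboratory strain with no engineered allele named in the labels, grown aerobically under carbon limitation at 0.05 per hour, pH 5 and 30 degrees C in a chemostat, where fresh medium flows in as steadily as culture flows out. Every group came from such cultures. Injected glucose lifted the residual concentration to about 1 g per litre, or 5.56 mM, and liquid nitrogen stopped the cells at sampling. Of the 16 Affymetrix arrays, 3 held the unpulsed steady state. The pulsed cells filled 2 arrays each for 30 s, 60 s and 330 s, 3 arrays each for 120 s and 300 s, and 1 array for 210 s. The labels state at least 2 independent cultures for each time except 210 s, which came from 1 culture and entered no test.

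Signals below are on the scale left after each array was brought to a trimmed mean of 150, with a floor of 12. The trimmed means as deposited ran from 82.8 to 325.9, and log2 signals of arrays of one time point correlated across genes at 0.967 to 0.989. The arrays fell into 6 hybridization or scan days. They were also grouped by array number in the titles (MA23 to MA25, MA56 to MA61, MA64 to MA69, MA78 to MA81), called array-number series here. The labels do not name these series as batches. Both 330 s arrays had a day of their own, so at 330 s the day and the time cannot be told apart. The 6 transcripts typical of MATa cells were measured, with steady-state means from 109 (STE6) to 2991 (MFA1), and 0 of them were called at 300 s. Of the 4 MATalpha markers, MF(ALPHA)2 lay at the floor and STE3 averaged 38.2 at steady state. MF(ALPHA)1 and SAG1 averaged 192.8 and 132.3 there, both above the MATa marker STE6. MF(ALPHA)1 was called higher at 300 s (log2 0.81) and SAG1 lower (log2 -0.57), and their part in the results was not tested. Arrays of whole cultures cannot tell fewer cells of a kind from less RNA per cell.

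Translation factor transcripts were not called at any time up to 120 s and were higher, on balance, at 300 s. At 300 s, 28 of the 31 genes had a positive log2 change against steady state, 2 had a negative one and TIF4632 lay at the floor, and the median was 0.34 against -0.12 over all 5410 genes tested. A gene counted as called at a limma adjusted p under 0.05 over all genes tested. By that test 9 of 31 rose and 0 fell, or 29.0%, beside 30.5% of all genes called in either direction, 12.1% called higher and 18.3% called lower. The share called was thus near that of all genes, while none of the calls was downward. On the arrays themselves, 14 of the 31 genes had every 300 s array above every steady-state array (14.1% of all genes) and 0 had every one below (23.6%). The 9 that rose were DED1, RPG1, PAB1, SUI3, GCN3, EFB1, SUP45, SUI1 and CDC33, with log2 changes from 0.36 to 1.02, at least 1 from each of the 7 role groups.

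**Figure D1:**
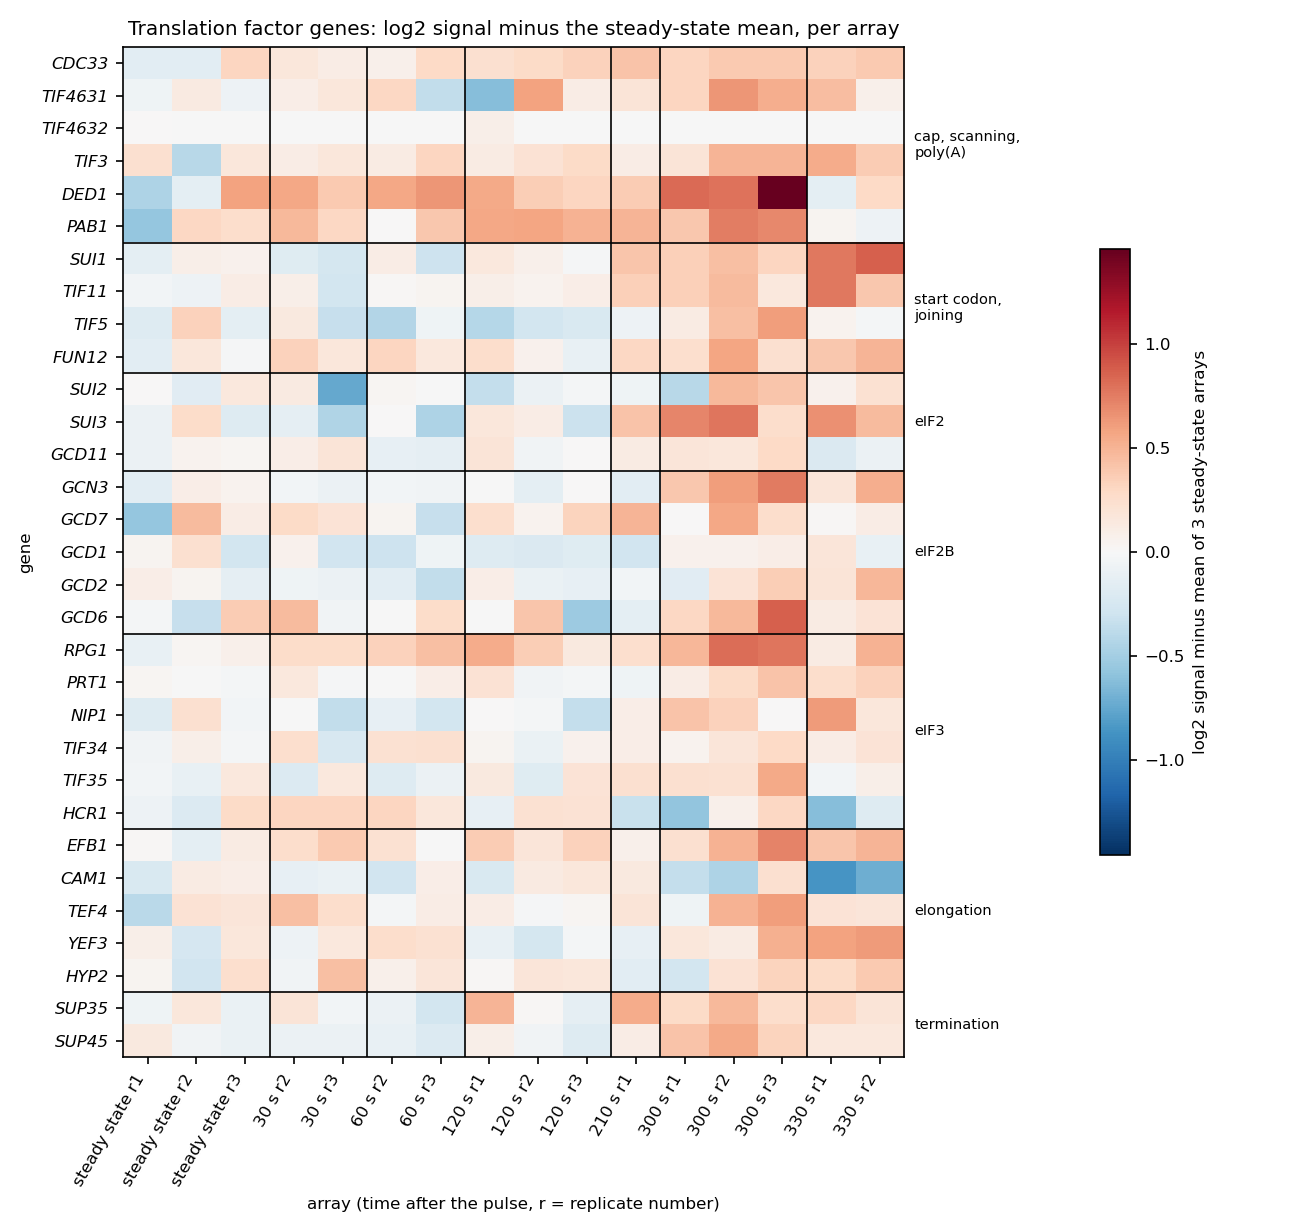
Log2 signal of each of the 31 translation factor genes (rows, grouped by role) on each of the 16 arrays (columns, in order of time after the pulse), minus that gene's mean over the 3 steady-state arrays. Red marks a higher and blue a lower signal. The 300 s columns are red for most genes, DED1 most of all on 300 s replicate 3, while TIF4632 is blank because it lies at the floor.

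**Figure D2:**
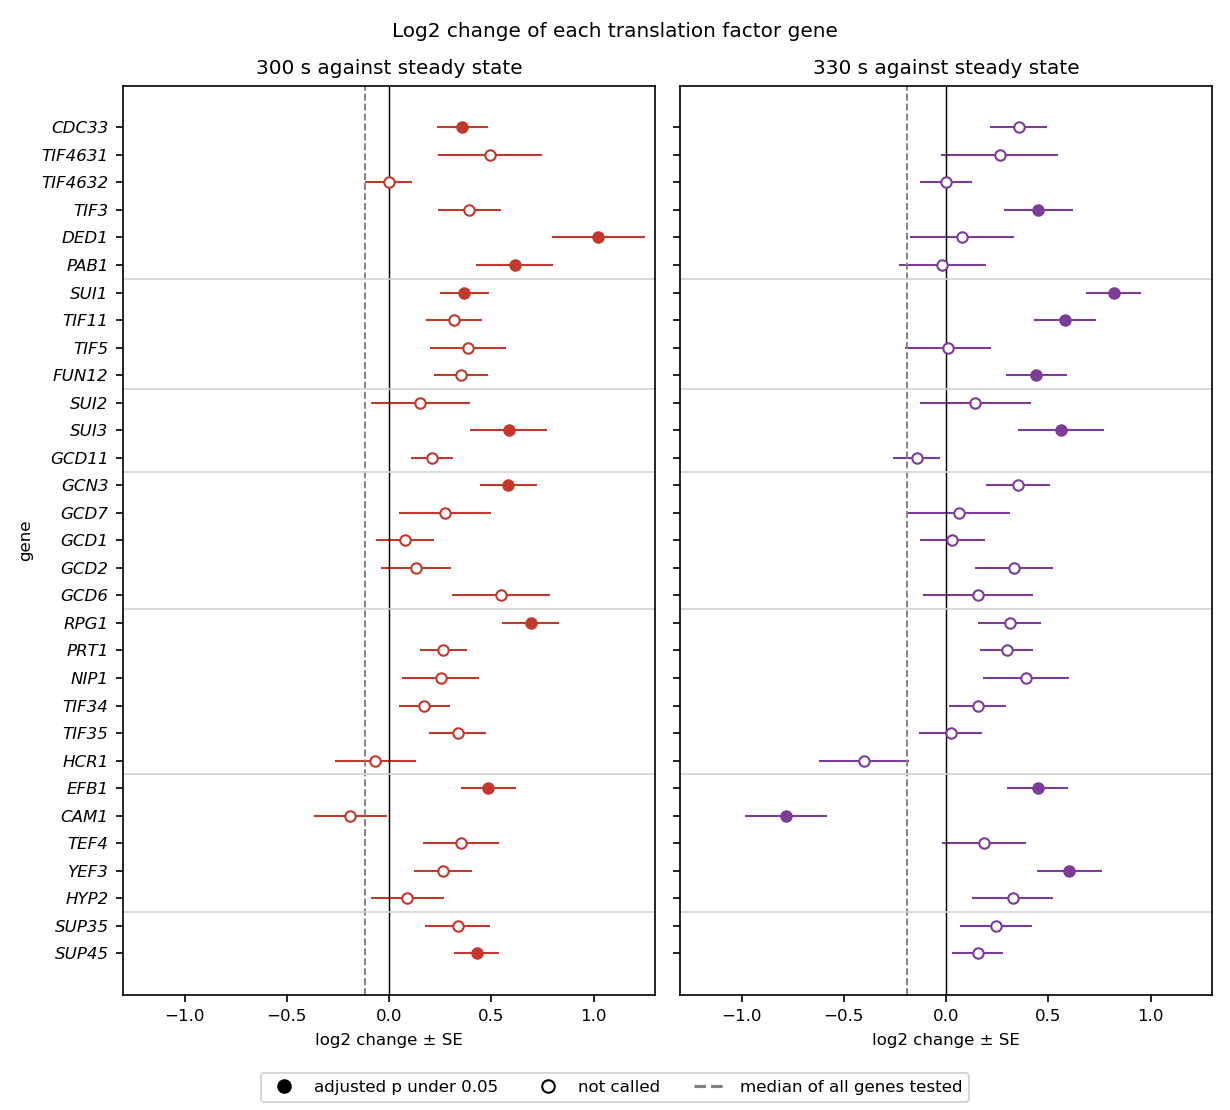
Log2 change (points) with its standard error (bars) of each of the 31 genes at 300 s (left) and 330 s (right) against steady state, from the fit over 15 arrays. Filled points passed an adjusted p of 0.05, and the dashed line is the median of all genes tested, at -0.12 (300 s) and -0.19 (330 s). At 300 s 9 points are filled, all right of 0, and at 330 s 7 are filled right of 0 and 1, CAM1, left of it.

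The sign of a small change depends on how the arrays are scaled. Under median centring the median of all genes at 300 s was 0.04 and under quantile normalization -0.03, in place of -0.12. At 330 s it was -0.03 and -0.10 in place of -0.19. Relative to that median, the translation factors lay 0.45 higher at 300 s under the scaling used here, 0.47 higher under median centring and 0.35 higher under quantile normalization, and at 330 s the figures were 0.43, 0.45 and 0.39. At 300 s 30 of 31, 29 of 30 and 28 of 31 genes lay above the median of all genes, with TIF4632, at the floor, among the first 30. Higher genes made up 39.8% of all genes called at 300 s under the scaling used here, 62% under median centring and 50.4% under quantile normalization, and 35.4%, 52.4% and 43.1% at 330 s. Median centring called 16 of 30 translation factors at 300 s, the 9 above and FUN12, GCD11, PRT1, SUP35, TIF11, TIF3 and TIF5. Of all genes, it called 876 higher and 536 lower at 300 s, in place of 656 and 992.

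**Figure D3:**
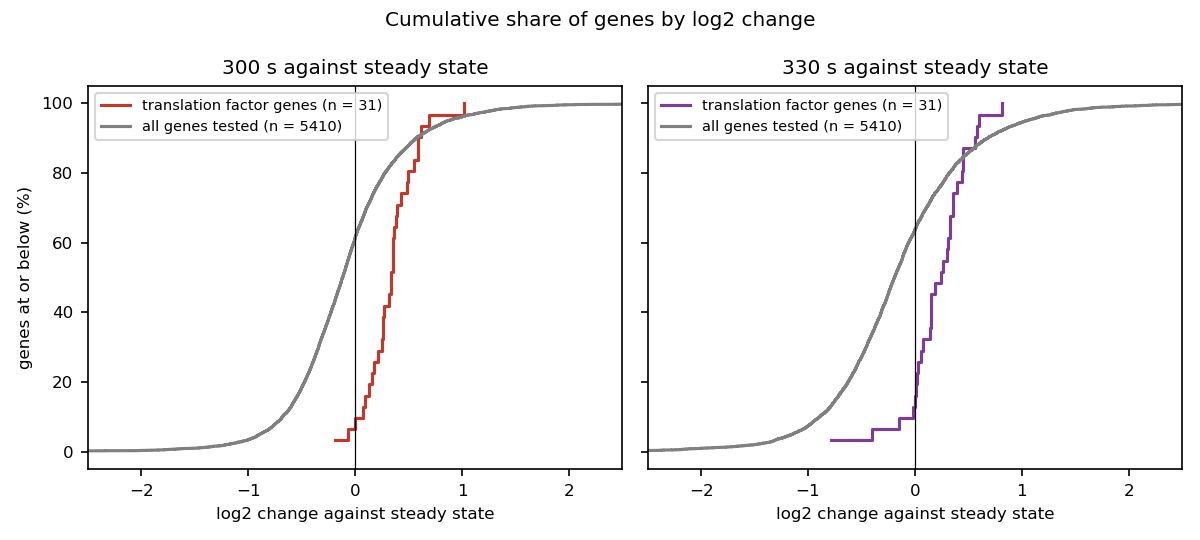
Cumulative share of genes (vertical axis, percent) at or below a given log2 change against steady state (horizontal axis, which leaves out the few widest changes) for the 31 translation factor genes and for all 5410 genes tested, at 300 s (left) and 330 s (right). The curve of the translation factors lies to the right of that of all genes over most of its height, with medians of 0.34 against -0.12 at 300 s and 0.24 against -0.19 at 330 s.

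The hybridization or scan day could be held constant for 2 pairs of arrays at 300 s. On the day of replicate 3, 300 s replicate 3 lay above steady state replicate 3 for 30 of the 31 genes and below it for 0, with a median log2 difference of 0.35 against -0.09 over all genes. On the day that held 300 s replicate 1 and steady state replicate 2, 21 differences were positive and 9 negative, with a median of 0.13 against -0.12. With day as a block in the fit, 9 genes were called, but CDC33, PAB1 and SUI1 were not among them and TIF3, TIF35 and YEF3 were. The count over all genes in that fit is not given here.

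Among the genes that act on the mRNA cap, leader and tail, the helicase gene DED1 had the largest change of all 31. DED1 (YOR204W) encodes the DEAD-box helicase that unwinds mRNA leaders for scanning. Its signals were 345.5, 338.2 and 535.6 at 300 s, against 143.7, 177.3 and 293 at steady state. Every 300 s array lay above every steady-state array, and DED1 rose 2.03-fold (log2 1.02 ± 0.23 SE, n = 3 each, limma adjusted p = 0.00334). The 2 same-day differences were 0.96 and 0.87. At 30, 60 and 120 s its arrays lay between 242.2 and 305.6, around the upper steady-state array, and none of these times was called. At 330 s DED1 gave 177.8 and 239.6, inside the steady-state range, with a log2 change of 0.08 ± 0.25. Steady state replicate 1 alone shared an array-number series with the 330 s arrays, and against it the 330 s mean was 0.52 higher.

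PAB1 (YER165W), the poly(A)-binding protein that bridges the tail to eIF4G, gave 312.9, 398.6 and 386.3 at 300 s, against 161.6, 293.2 and 283.9 at steady state. No 300 s array overlapped the steady state, and PAB1 rose 1.53-fold (log2 0.61 ± 0.19, limma adjusted p = 0.0234). The low steady-state array, replicate 1, weighed on this value. Without it the change was 0.33 (adjusted p = 0.0968), with day as a block 0.31 (adjusted p = 0.139), and without 300 s replicate 2 or 3 the adjusted p was 0.0865 and 0.0734. The same-day differences were 0.09 and 0.44. PAB1 was already at 350.9, 353 and 337.2 at 120 s, above every steady-state array, although that change of 0.54 ± 0.19 was not called (adjusted p = 0.354). At 330 s the arrays gave 243.7 and 226.4, within the steady-state range. Against steady state replicate 1, the low array and the only one in their array-number series, the 330 s mean was 0.54 higher.

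CDC33 (YOL139C) encodes eIF4E, the cap-binding protein. Its signals were 634.7, 668.4 and 670.3 at 300 s, against 461.8, 460.4 and 635.2 at steady state. The lowest 300 s array fell just under the highest steady-state array, and CDC33 rose 1.28-fold (log2 0.36 ± 0.12, limma adjusted p = 0.0399). This call was the least stable of the 9. It was lost in 14 of 29 alternatives, among them quantile normalization (0.30, adjusted p = 0.0624) and the fits without steady state replicate 1 or 2 (0.28 each, adjusted p = 0.135). At 330 s CDC33 read 646.4 and 666, a change of 0.35 ± 0.14 that was not called (adjusted p = 0.056).

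TIF3 (YPR163C), the eIF4B gene, whose product assists the eIF4A helicase, had its call at 330 s. It read 671.9 and 596.8 at 330 s and 529.4, 651.1 and 652.3 at 300 s, against 545.7, 349.9 and 520.2 at steady state. Both 330 s arrays lay above the steady state, and TIF3 rose by 0.45 ± 0.17 on the log2 scale (limma adjusted p = 0.0482). That call was lost in 19 of 28 alternatives, and without steady state replicate 2, the low one, the change was 0.25 (adjusted p = 0.177). At 300 s the change was 0.39 ± 0.15 (adjusted p = 0.0629).

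Of the 2 genes for the scaffold eIF4G, TIF4631 (YGR162W) read 63.6, 80.1 and 74.1 at 300 s, against 49.4, 56.3 and 48.8 at steady state. The groups did not overlap, yet its arrays at other times spread from 33.4 to 76.8, and the change of 0.49 ± 0.26 was not called (limma adjusted p = 0.158). TIF4632 (YGL049C) lay at the floor on 14 of 16 arrays, with 12.03 on steady state replicate 1 and 12.77 on 120 s replicate 1, so that no fold can be given for it.

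Of the 4 genes for start codon selection and subunit joining, 3 rose at 330 s, when 13.3% of all genes were called higher. SUI1 (YNL244C) encodes eIF1, the factor that guards against wrong start codons. It read 673.3 and 724.5 at 330 s and 503.5, 537.3 and 491.8 at 300 s, against 357.7, 419.4 and 413 at steady state. The 3 sets did not overlap, with 330 s on top. SUI1 rose 1.76-fold at 330 s (log2 0.82 ± 0.13, limma adjusted p = 0.000248), a call kept in 28 of 28 alternatives, and 1.29-fold at 300 s (log2 0.37 ± 0.12, adjusted p = 0.0307). The 300 s call was lost with day as a block (0.24, adjusted p = 0.124), with quantile normalization, and when steady state replicate 1 or the 300 s replicates 2 or 3 were left out, with adjusted p from 0.052 to 0.106 in those 3. Same-day differences at 300 s were 0.26 and 0.25.

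TIF11 (YMR260C) encodes eIF1A, which works beside eIF1 on the scanning ribosome. Its arrays gave 320.2 and 246.3 at 330 s and 238.5, 258.3 and 208.6 at 300 s, against 182.5, 179.1 and 203 at steady state. All late arrays lay above the steady state. TIF11 rose 1.49-fold at 330 s (log2 0.58 ± 0.15, limma adjusted p = 0.00734), and without 330 s replicate 1 the change was 0.39 (adjusted p = 0.12). At 300 s the value was 0.32 ± 0.14 (adjusted p = 0.0872).

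FUN12 (YAL035W) encodes eIF5B, the GTPase that joins the large subunit. It read 491.7 and 527.5 at 330 s and 445.4, 559.7 and 440.1 at 300 s, against 337, 422.2 and 371.1 at steady state. No late array overlapped the steady state. FUN12 rose by 0.44 ± 0.15 at 330 s (limma adjusted p = 0.0296). That call was lost without either 330 s array and without steady state replicate 1 or 3, at changes from 0.36 to 0.49. At 300 s the value was 0.35 ± 0.13 (adjusted p = 0.0575).

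TIF5 (YPR041W), the gene for eIF5, which triggers GTP hydrolysis by eIF2 at the start codon, was called against 120 s and not against steady state. Its signals were 114.2, 143.2 and 160.2 at 300 s, 78.9, 87.4 and 90.6 at 120 s and 92.7, 132.9 and 95.4 at steady state. The 300 s arrays lay above all 120 s arrays but overlapped the steady state. Against 120 s TIF5 rose by 0.69 ± 0.19 (limma adjusted p = 0.0141), the largest change in that comparison, while against steady state it had 0.39 ± 0.19 (adjusted p = 0.13). The 120 s arrays were all below the steady state (log2 -0.30 ± 0.19, adjusted p = 0.579).

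**Figure D4:**
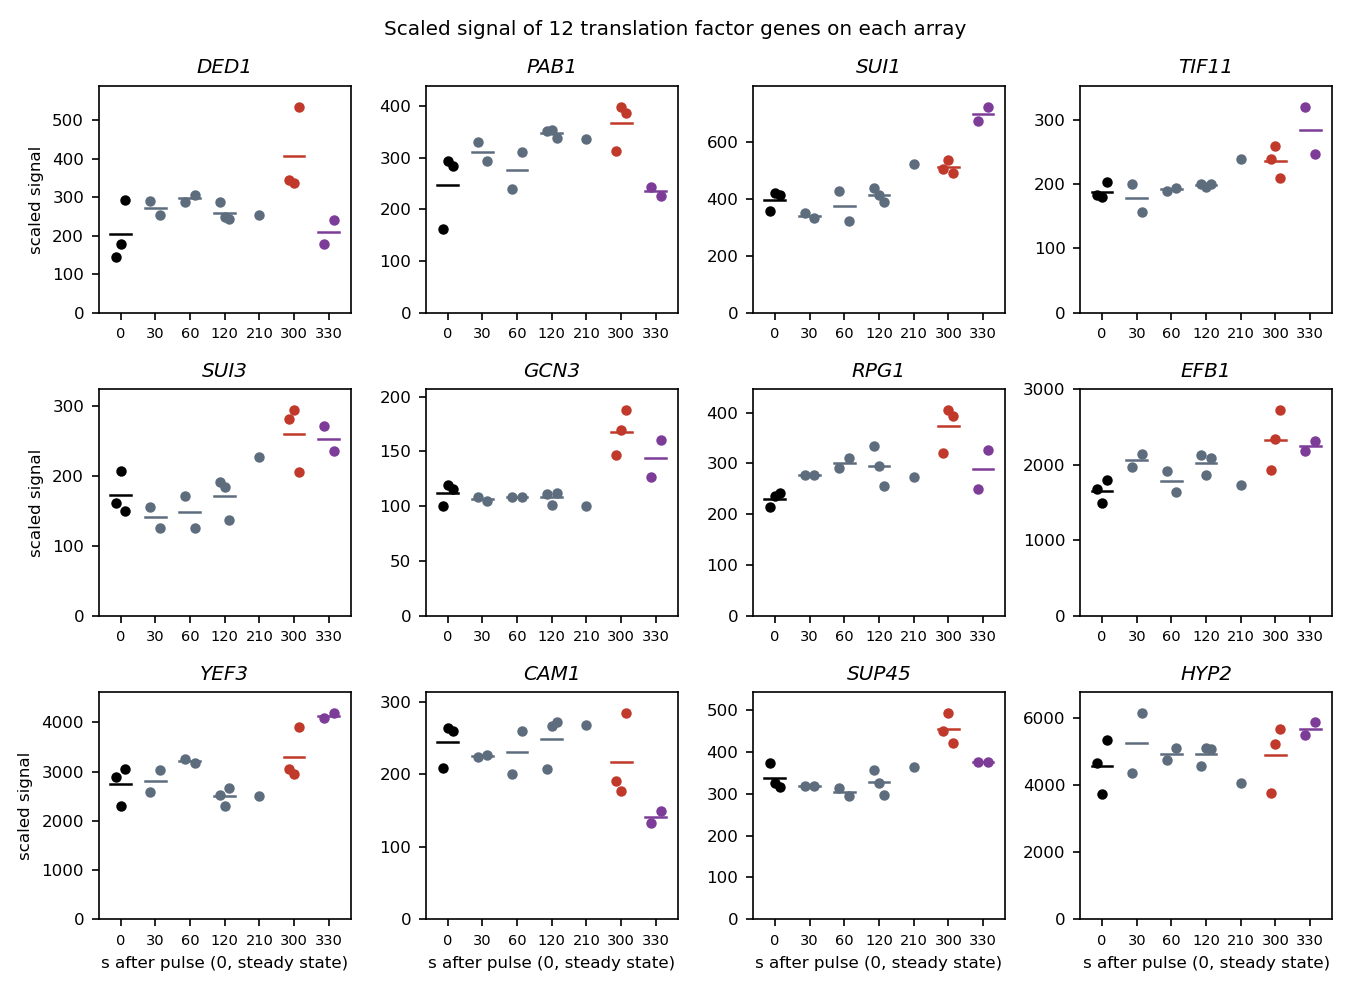
Scaled signal (linear axes from 0, no unit) of 12 of the genes on each array (points), with the group mean (lines), against the time after the pulse in seconds, where 0 is the steady state. The times are evenly spaced on the axis whatever the interval. DED1, GCN3, RPG1 and SUP45 are highest at 300 s, SUI1, YEF3 and TIF11 have their highest mean at 330 s, and CAM1 has its lowest there.

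Of the 3 subunits of eIF2, the carrier of initiator tRNA, SUI3 was called at both late times and the other two at neither. SUI3 (YPL237W), the beta subunit, read 280.7, 294.1 and 204.8 at 300 s and 271.2 and 235 at 330 s, against 161.3, 206.3 and 150.3 at steady state. Its lowest 300 s array fell just under the highest steady-state array, and both 330 s arrays lay above. SUI3 rose by 0.59 ± 0.19 on the log2 scale at 300 s (limma adjusted p = 0.0281) and 1.48-fold at 330 s (log2 0.56 ± 0.21, adjusted p = 0.0467). The same-day differences were 0.44 and 0.45. The 300 s call was lost when any of steady state replicates 1 and 3 or 300 s replicates 1 and 2 was left out, with changes from 0.49 to 0.54 and adjusted p from 0.0783 to 0.115. Against 120 s, where SUI3 gave 191, 184.3 and 137.4, it rose by 0.60 ± 0.19 (adjusted p = 0.0311).

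SUI2 (YJR007W), the alpha subunit that Gcn2 phosphorylates, gave 50.1, 91.6 and 87.4 at 300 s, against 66.7, 59.2 and 73.8 at steady state. The 300 s arrays lay on both sides of the steady state, with a log2 change of 0.15 ± 0.24 (limma adjusted p = 0.669). GCD11 (YER025W), the GTP-binding gamma subunit, gave 574.8, 567.3 and 618.5 at 300 s and 439.9 and 478.9 at 330 s, against 479, 524.6 and 519.1 at steady state. Its 300 s arrays were all above and its 330 s arrays all below the steady state, at log2 changes of 0.21 ± 0.10 (adjusted p = 0.135) and -0.14 ± 0.11 (adjusted p = 0.34), neither of which was called. Under median centring the 330 s value of GCD11 turned to 0.02.

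In eIF2B, the exchange factor of eIF2, the call at 300 s was that of GCN3 (YKR026C), the alpha subunit through which the complex senses phosphorylated eIF2. GCN3 read 146.9, 169.7 and 188 at 300 s, against 100.5, 119.4 and 116.1 at steady state. Its 10 arrays at steady state and up to 120 s lay between 100.5 and 119.4, the 210 s array gave 100.1, and every 300 s array was above them all. GCN3 rose by 0.58 ± 0.14 on the log2 scale (limma adjusted p = 0.0057), a call kept in 29 of 29 alternatives, and against 120 s it rose by 0.63 ± 0.14 (adjusted p = 0.00438). The same-day differences were 0.30 and 0.69. At 330 s it gave 126.5 and 160.9, also above the steady state, without a call (0.35 ± 0.16, adjusted p = 0.0886).

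The other eIF2B subunits were not called at 300 s or 330 s. GCD6 (YDR211W), the catalytic epsilon subunit, read 123.2, 138 and 183.1 at 300 s, against 97.9, 79.1 and 128.8 at steady state. The groups overlapped by 1 array of each, and the change was 0.55 ± 0.24 (limma adjusted p = 0.0957). GCD7 (beta), GCD1 (gamma) and GCD2 (delta) had 300 s changes of 0.27 ± 0.22, 0.08 ± 0.14 and 0.13 ± 0.17, each with overlapping arrays. GCD1 spread from 288 to 293.8 at 300 s, inside a steady-state range of 228.7 to 322.6, and GCD2 was a dim probe set throughout, from 26.3 to 46.8.

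Of the 6 eIF3 genes, RPG1 (YBR079C), the gene for the large scaffold subunit eIF3a, was the one called at 300 s. It read 321.5, 405.5 and 393.7 at 300 s, against 214.3, 235.4 and 241.4 at steady state. RPG1 rose 1.62-fold (log2 0.69 ± 0.14, limma adjusted p = 0.00153), a call kept in 29 of 29 alternatives, with same-day differences of 0.45 and 0.71. Its arrays at 30 s (277.2 and 277.4), 60 s (291 and 311.4) and 120 s (334.4, 294.4 and 254.6) also all lay above every steady-state array. Those changes of 0.27 ± 0.15, 0.39 ± 0.15 and 0.35 ± 0.14 were not called, with adjusted p of 0.793, 0.76 and 0.405. At 330 s RPG1 gave 250 and 326.5, a change of 0.31 ± 0.15 (adjusted p = 0.122).

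The other eIF3 genes had smaller values. PRT1 (YOR361C), subunit b, read 301.1, 339.5 and 373 at 300 s and 334.4 and 354.2 at 330 s, against 285.8, 279.8 and 274.8 at steady state. Both late groups lay above the steady state, at 0.26 ± 0.12 and 0.30 ± 0.13, and neither was called (limma adjusted p = 0.0951 and 0.0826). TIF35 (YDR429C), subunit g, read 863, 857 and 1075 at 300 s, above steady-state arrays from 679.3 to 817.8, at 0.34 ± 0.14 (adjusted p = 0.0786). NIP1 (c) and TIF34 (i) had 300 s changes of 0.25 ± 0.19 and 0.17 ± 0.13 with overlapping arrays.

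HCR1 (YLR192C), the loosely bound subunit j, had negative changes at both late times, which median centring turned positive at 300 s. It read 242.7, 378.9 and 443 at 300 s and 234.4 and 317 at 330 s, against 341.6, 314.7 and 435.6 at steady state. The 300 s arrays reached past the steady state on both sides, and its changes of -0.07 ± 0.20 and -0.40 ± 0.22 were not called (limma adjusted p = 0.829 and 0.161). At 30 s its 2 arrays, 448.2 and 449, were above every steady-state array (log2 0.32 ± 0.22).

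Of the 5 elongation genes, 2 rose and 1 fell at 330 s, when 13.3% of all genes were called higher and 24.3% lower. EFB1 (YAL003W) encodes the nucleotide exchange subunit of eEF1B, which recharges the tRNA carrier eEF1A. It read 1935, 2341 and 2730 at 300 s and 2185 and 2322 at 330 s, against 1675, 1499 and 1794 at steady state. All late arrays lay above the steady state, and EFB1 rose 1.40-fold at 300 s (log2 0.49 ± 0.13, limma adjusted p = 0.0127) and 1.36-fold at 330 s (log2 0.45 ± 0.15, adjusted p = 0.0282). Same-day differences at 300 s were 0.37 and 0.61, and without 300 s replicate 3 the change was 0.37 (adjusted p = 0.0679). A second, dimmer EFB1 probe set had 0.31 at 300 s and -0.04 at 330 s, so that the 2 probe sets disagreed at 330 s.

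YEF3 (YLR249W) encodes eEF3, the fungal ATPase that clears spent tRNA from the ribosome. Its signals were 4091 and 4192 at 330 s and 3057, 2954 and 3905 at 300 s, against 2889, 2300 and 3057 at steady state. Both 330 s arrays exceeded all the others, and YEF3 rose 1.52-fold at 330 s (log2 0.60 ± 0.16, limma adjusted p = 0.00754). Without 330 s replicate 2 the change was 0.58 (adjusted p = 0.0534). At 300 s the groups overlapped, at 0.27 ± 0.14 (adjusted p = 0.169).

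CAM1 (YPL048W), a gene for the gamma subunit of eEF1B, was the only one of the 31 that was called lower. It read 133.4 and 148.8 at 330 s and 190.6, 177.4 and 284.6 at 300 s, against 208.5, 263.3 and 260.2 at steady state. Both 330 s arrays lay below every other array of the series, while at 300 s replicate 3 lay above the steady state and replicates 1 and 2 below it. CAM1 fell by 0.78 ± 0.20 on the log2 scale at 330 s (limma adjusted p = 0.00635). With the array-number series as a block the change was -0.57 (adjusted p = 0.0577), and without 330 s replicate 1 it was -0.71 (adjusted p = 0.0673). At 300 s the value was -0.19 ± 0.18 (adjusted p = 0.451).

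TEF4 (YKL081W), the other gene for eEF1B gamma, gave 155.9 and 153.4 at 330 s and 130, 192.6 and 207.9 at 300 s, against 103.5, 157.7 and 153.8 at steady state. It was not called at either time, at 0.19 ± 0.21 and 0.35 ± 0.18 (limma adjusted p = 0.498 and 0.165), and its second probe set had -0.23 and 0.46. HYP2 (YEL034W) encodes eIF5A, the hypusine-bearing factor that helps the ribosome through difficult peptide bonds. It read 3773, 5227 and 5682 at 300 s and 5481 and 5878 at 330 s, against 4652, 3737 and 5351 at steady state. The 300 s arrays overlapped the steady state (0.09 ± 0.18), and the 330 s arrays lay just above it (0.32 ± 0.20, adjusted p = 0.212).

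Both release factor genes were higher on the 300 s arrays, and SUP45 was called. SUP45 (YBR143C) encodes eRF1, which reads the stop codon. It gave 449.5, 493.3 and 422.5 at 300 s, against 373.2, 327 and 315.5 at steady state. The groups did not overlap, and SUP45 rose 1.35-fold (log2 0.43 ± 0.11, limma adjusted p = 0.00925), with same-day differences of 0.46 and 0.42. Against 120 s, at 357.4, 326.8 and 297.3, it rose by 0.48 ± 0.11 (adjusted p = 0.00572). At 330 s it read 375.6 and 376.4, barely above the highest steady-state array (0.16 ± 0.12, adjusted p = 0.343).

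SUP35 (YDR172W), the gene for eRF3, the GTPase partner of eRF1, read 191.9, 218.7 and 187.6 at 300 s, against 151, 176.1 and 147.4 at steady state. Its groups did not overlap either, but 120 s replicate 1 was as high, at 222.9, and the change of 0.34 ± 0.16 was not called (limma adjusted p = 0.12).

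Before 300 s, none of the 31 genes passed. By limma's test 0 were called at 30 s, 0 at 60 s and 0 at 120 s, beside 0%, 0% and 0.0739% of all genes (at 120 s 0.0555% higher and 0.0185% lower), and 0, 2 and 4 of them had an unadjusted p under 0.05 (0%, 6.45% and 12.9%, beside 6.21%, 6.34% and 10.8% of all genes). These shares are near those of all genes. Log2 changes ran from -0.31 (SUI2) to 0.47 (DED1) at 30 s, from -0.25 (GCD2) to 0.60 (DED1) at 60 s and from -0.30 (TIF5) to 0.54 (PAB1) at 120 s. The unadjusted genes were DED1 and RPG1 at 60 s and CDC33, PAB1, RPG1 and EFB1 at 120 s. On the arrays, 5 genes lay wholly above the steady state at 30 s, 3 at 60 s and 3 at 120 s (7.01%, 7.10% and 4.16% of all genes), and 1, 3 and 1 wholly below (11.0%, 11.6% and 10.4%).

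The step from 120 s to 300 s was tested directly. Of the 31 genes 4 rose and 0 fell, beside 22.1% of all genes called in either direction, 11.3% called higher and 10.8% called lower. They were TIF5, GCN3, SUI3 and SUP45. In 11 genes every 300 s array lay above every 120 s array (17.9% of all genes) and in 0 every one below (22.0%). This count changed when a block was added to the fit, with 10 genes called with day as a block and 8 with the array-number series as a block. Counts over all genes in those fits are not given here, so the shift cannot be read as particular to these genes. PAB1 and CDC33 had log2 changes of 0.07 and 0.08 over this step.

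At 330 s against steady state 7 of 31 genes rose and 1 fell, beside 37.6% of all genes called in either direction, 13.3% called higher and 24.3% called lower. Those that rose were SUI1, YEF3, TIF11, SUI3, TIF3, EFB1 and FUN12, and the list median was 0.24 against -0.19 over all genes. All 330 s arrays lay above all steady-state arrays in 16 genes (19.0% of all genes) and below in 2, CAM1 and GCD11 (36.1%). The count fell when either 330 s array was left out, which leaves 1 array at that time. Counts over all genes in those fits are not given here. Steady state replicate 1 shares the array-number series of the 330 s arrays, and against it 26 of the 31 genes were positive, with a median of 0.30 against -0.19 over all genes.

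Between 330 s and 300 s no translation factor was called by limma, beside 2.18% of all genes (0.647% higher and 1.53% lower). An unadjusted p under 0.05 was reached by 8 of the 31 (25.8%), beside 19.7% of all genes. The widest differences were those of DED1 (-0.94 ± 0.25, adjusted p = 0.0619), PAB1 (-0.63 ± 0.21, adjusted p = 0.121), CAM1 (-0.59 ± 0.20, adjusted p = 0.121) and SUI1 (0.45 ± 0.13, adjusted p = 0.0855). All 330 s arrays were below all 300 s arrays in 8 genes (21.1% of all genes) and above in 2, SUI1 and YEF3 (13.8%). Without steady state replicate 1 the test called 2 genes and without steady state replicate 3 it called 1, and the counts over all genes in those fits are not given here. That SUI1 was called at both times and DED1 at 300 s alone therefore rests on separate comparisons with a shared control, and the direct test between the late times did not pass. Over the whole course, limma's F test called 9 of 31 genes, beside 35.5% of all genes. They were DED1, SUI1, TIF11, SUI3, GCN3, RPG1, CAM1, YEF3 and SUP45. Fewer were called without 330 s replicate 1, a fit whose count over all genes is not given here.

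Other genes of the translation pathway were taken from 4 lists. Of 15 other cytosolic factors 11 were tested, and at 300 s 4 rose and 1 fell (45.5% called, beside 30.5% of all genes, 12.1% higher and 18.3% lower). At 330 s 5 rose and 2 fell (63.6%, beside 37.6%). NEW1, a relative of YEF3 with a part in ribosome recycling, read 1138 ± 231 at 300 s, against 483.5 ± 85.8 at steady state (SD, n = 3 each), and rose 2.34-fold (limma adjusted p = 0.000839). ANB1, the paralog of HYP2 known as the eIF5A gene of oxygen-poor cells, read 57.1 ± 12.5 at 300 s, against 25.2 ± 3.6 at steady state, and rose 2.25-fold (adjusted p = 0.00146). YGR054W, which encodes eIF2A, rose by 0.89 ± 0.22 on the log2 scale (adjusted p = 0.00674). DBP1, the paralog of DED1, fell by 1.32 ± 0.33 (adjusted p = 0.00709), at 24.4 ± 14.2 against 56.7 ± 19.8, with 1 array as low as 13.2, close to the floor. So DED1 was called higher and DBP1 lower at the same time, while HYP2 was not called and ANB1 was called higher.

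Of 16 enzymes that modify translation factors 14 were tested, and 4 rose at 300 s and 6 at 330 s. The shares called, 28.6% and 42.9%, stood beside 30.5% and 37.6% of all genes called in either direction. All of these calls were upward, while 12.1% and 13.3% of all genes were called higher. The counts and shares at both times include EFM6, whose call was built in, as described below. DYS1 and LIA1 make the hypusine residue of eIF5A. DYS1 read 290.1 ± 29.8 at 300 s, against 146 ± 27.8 at steady state, a rise of 2.01-fold (limma adjusted p = 0.000134), and LIA1 read 874.5 ± 163 against 464.3 ± 67.2, a rise of 1.88-fold (adjusted p = 0.00043). EFM3, a methyltransferase of elongation factor 2, rose by 0.77 ± 0.22 (adjusted p = 0.0152). EFM6, a methyltransferase of eEF1A, lay at the floor on all arrays up to 210 s and read 24.6 ± 4.56 at 300 s, at least 2.03-fold higher. It passed the filter on low signals through the late arrays alone, so a call in its case was built in.

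Of 12 regulators of initiation 0 were called at 300 s by limma, beside 30.5% of all genes, and 1 had an unadjusted p under 0.05 (8.33%, beside 41.8%). The kinase gene GCN2 read 21 ± 0.593 at 300 s, against 28 ± 4.56 at steady state, and the activator gene GCN4, which is controlled mainly through translation of its mRNA, read 2013 ± 117 against 1938 ± 72.7. At 330 s 3 of the 12 were called, 2 higher and 1 lower, beside 37.6% of all genes. GCN2, at 18.2 and at the floor of 12 on its 330 s arrays, was called lower (log2 -0.91 ± 0.22, limma adjusted p = 0.00416). CAF20, whose product binds eIF4E and competes with eIF4G, rose by 0.56 ± 0.13 on the log2 scale (adjusted p = 0.00327), and GCN20, a partner in the activation of Gcn2, by 0.58 ± 0.16 (adjusted p = 0.0101). Mitochondrial translation factors were lower. Of 9 listed, 8 were tested, all 8 changes were negative with a median of -0.74, and 5 were called lower, against 18.3% of all genes. At 330 s all 8 were again negative and 4 were called lower, against 24.3%. At 300 s GUF1, a ribosome-binding GTPase, fell by 1.17 ± 0.23 on the log2 scale (limma adjusted p = 0.00134). Its mean was 28.8 at 60 s and 29.6 at 120 s, against 54.8 ± 17.1 at steady state, where its arrays ran from 36.7 to 70.8. Those early differences were not called, as 0 of the 8 factors passed at 60 s or 120 s, beside 0% and 0.0739% of all genes. At 330 s GUF1 was not called (adjusted p = 0.0664). Also at 300 s, the recycling factor RRF1 fell by 0.80 ± 0.22 (adjusted p = 0.0118), the initiation factor IFM1 by 0.80 ± 0.18 (adjusted p = 0.00393) and the elongation factor MEF1 by 0.78 ± 0.15 (adjusted p = 0.00128).

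**Figure D5:**
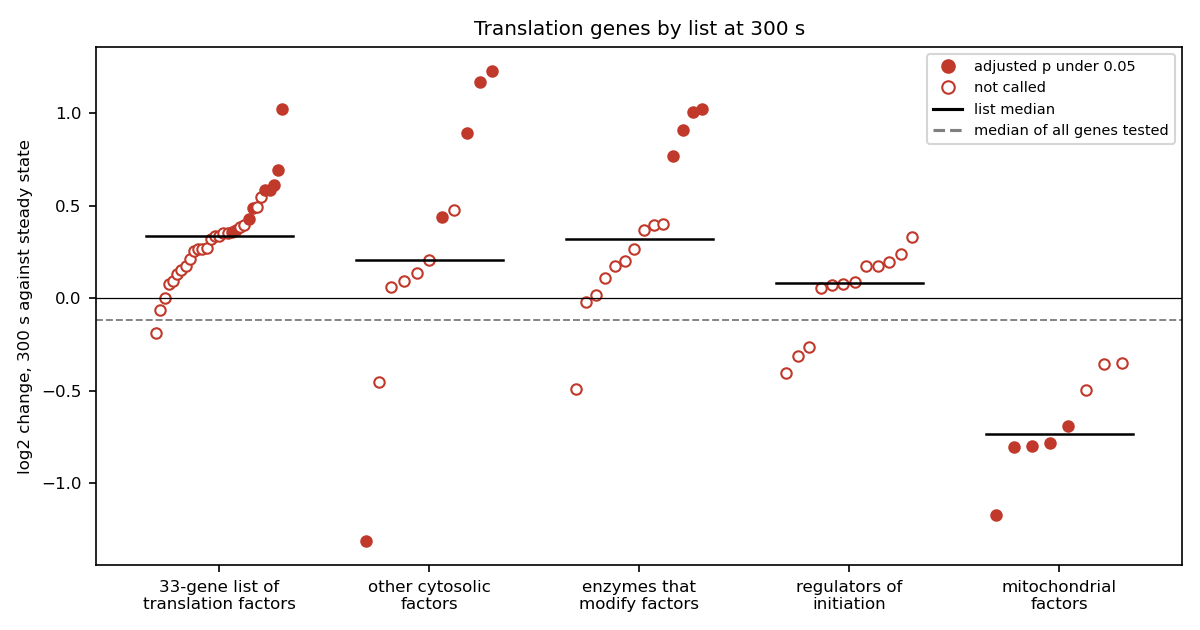
Log2 change at 300 s against steady state (vertical axis) of each tested gene (points, in order of size) in the 33-gene list and in 4 lists of other translation genes. Filled points passed an adjusted p of 0.05, the short line is the list median and the dashed line the median of all genes tested, at -0.12. Cytosolic factors lie mostly above 0, and all 8 mitochondrial factors lie below it. The filled points of the enzymes include EFM6, whose call was built in by the filter on low signals.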

How the data were processed

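Per the file headers, the authors deposited 1 intensity per probe set and array, on a linear scale. The submitters' processing notes name GCOS, Affymetrix's own software, neither version nor settings being given in the sources used here. Arrays were scaled to a mean of 150 after trimming 2% at each end over 9335 probe sets, signals under a floor of 12 were set to 12, and log2 was taken. Of the probe sets, 6504 carry 1 gene, 328 several, 2443 none in the annotation used here and 60 are controls. All 6504 matched RefSeq's R64 table, which gave names and no coordinates. The brightest probe set by mean log2 signal stood for each of 5656 genes, and 246 dim genes, with under 2 arrays above the floor, were dropped.

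limma 3.58.1 in R 4.3.3 (lmFit, eBayes with a variance trend) was fitted to 5410 genes on the 15 arrays of 6 time points, with 9 residual and 6.31 prior degrees of freedom. Calls used a Benjamini-Hochberg adjusted p under 0.05, over all genes. ± after log2 changes is the standard error, after signals the SD. The procedure was run on simulated data with independent noise on each array, so that run does not cover a shared day or pulse. The number of arrays limits the precision.

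The members, lists and tests were chosen with earlier results of these data known. All 33 members are named. Of each other list, up to 4 genes called at 300 s with the largest change are named, and GCN2, GCN4, CAF20 and GCN20 were added after their values were seen. No set test was made. Promoter motifs were not searched, since no sequence was used here. Alternatives covered scaling, floor, filter, variance model, arrays in the fit, blocks, threshold, probe set choice and each array left out.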

Additional observations from a re-analysis of the deposited data

Results flagged for a closer look

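The single 210 s array, which enters no test, held 14 of the 31 translation factor genes above every steady-state array (19.2% of all genes) and 4 below every one (31.7%). It is listed because it shows a signal in data that no comparison uses. The 14 were CDC33, TIF4631, PAB1, SUI1, TIF11, FUN12, SUI3, GCD11, GCD7, RPG1, TIF34, TIF35, CAM1 and SUP35. The 4 below were GCN3, GCD1, PRT1 and HCR1. SUP35 read 229.6 at 210 s, the highest of its 16 arrays, against 147.4 to 176.1 at steady state. The 210 s array shares its day and array-number series with 120 s replicate 1, where SUP35 read 222.9. On the other 120 s arrays it read 159.9 and 143.8. No steady-state array shares that day or series, so the day and the time cannot be told apart here. SUI1 read 522.4, within its 300 s range of 491.8 to 537.3, while GCN3, at 100.1, and YEF3, at 2503, did not stand with their late arrays. With 1 array there is no replicate check.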

How the results depend on the processing

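Each result was recomputed under 29 alternatives, 15 of which left out 1 array. The counts at 30 s, 60 s and 120 s stayed at 0 in all of them. Of 1877 gene values under the alternatives, 1699 kept their direction and side of the threshold, 102 lost a call, 39 gained one and 37 changed sign. DED1, GCN3 and RPG1 were called at 300 s in 29 of 29 alternatives, SUP45 in 28, EFB1 in 26, SUI3 in 23, PAB1 in 22, SUI1 in 20 and CDC33 in 15. At 330 s, where 28 could be run, SUI1 was called in 28, TIF11, YEF3 and CAM1 in 26 each, FUN12 in 22, EFB1 in 20, SUI3 in 15 and TIF3 in 9.

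The number of translation factors called at 300 s was 16 with median centring, 3 with only the arrays compared in the fit and 4 at an adjusted p under 0.01, and leaving out 1 array gave 5 to 10. At 330 s it was 2 with only the arrays compared and 4 at the stricter threshold, and 2 to 7 with 1 array left out. Between 300 s and 120 s it was 10 with day as a block, 8 with the array-number series as a block, 2 at the stricter threshold and 3 to 6 with 1 array left out. Between 330 s and 300 s it was 0 to 2 with 1 array left out, and over the whole course 4 at the stricter threshold and 5 to 10 with 1 array left out. The fits with fewer arrays have fewer degrees of freedom. The cause of the other shifts was not tested. Counts over all genes are not given for most of these fits, so the shifts cannot be read as particular to the translation factors.

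With the pulse number as a replicate block, 12 genes were called at 300 s and 11 at 330 s, with no call lost, and of all genes 13 in place of 4 at 120 s. FUN12, TIF3 and TIF35 were gained at 300 s and CDC33, GCN3 and HYP2 at 330 s. The counts over all genes at 300 s and 330 s with this block are not given here. Deviations from group means correlated at over 0.1 in 20 of 31 same-number array pairs (-0.202 to 0.425, median 0.154, against -0.0889 for other pairs). Because group means were subtracted, positive values in same-number pairs go with negative ones in other pairs of the same times. Of 15 arrays, 12 correlated best with their own number. All replicate 3 arrays shared a day and most replicate 2 arrays another, while the replicate 1 arrays in the fit had different days. Same-number pairs of replicate 1 ran from 0.065 to 0.336, and those of replicate 2 on different days from -0.202 to 0.273. The 17 same-day pairs had a median of 0.203. A same-day pair of different numbers, 300 s replicate 1 and steady state replicate 2, had 0.305. Pairing by number was not tested apart from a shared day. Not every pair was over 0.1, and the titles do not say whether a pulse number marks 1 culture, so the pairing is unsettled and the fit reported has no block.

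Changes of sign occurred in uncalled, small values, except that PAB1 at 330 s was called with the array-number series as a block (0.5398). At 300 s, day as a block gave -0.0183 for SUI2 and -0.0716 for GCD7, HCR1 had 0.1017 with median centring and 0.0751 with the series block, and HYP2 had -0.1637 with quantile normalization. At 330 s, PAB1 had 0.1487 with median centring, 0.0393 with quantile normalization and 0.0421 with the replicate block. GCD11 had 0.0226 with median centring, GCD1 had -0.0036 with the replicate block and -0.007 with the series block, TIF35 had -0.0357 with quantile normalization and TEF4 had -0.0202 with the mean of its probe sets. With 1 array left out, values at 300 s ran from -0.003 to 0.4322 for SUI2, -0.0109 to 0.5037 for GCD7, -0.0571 to 0.1911 for GCD1, -0.2494 to 0.1847 for HCR1 and -0.0496 to 0.2663 for HYP2. At 330 s they ran from -0.1428 to 0.3712 for DED1, -0.2967 to 0.1332 for PAB1, -0.0842 to 0.1757 for TIF5, -0.2226 to 0.2919 for GCD7, -0.1117 to 0.172 for GCD1, -0.013 to 0.3387 for GCD6, -0.039 to 0.0999 for TIF35 and -0.0104 to 0.2937 for TEF4. Day as a block gives no value at 330 s or over the whole course, since those arrays have a day of their own, and the fit of only the arrays compared gives none over the whole course. Signals near the floor, such as those of TIF4632 and GCD2, limit what can be measured.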
